A study of Mus musculus with 6 samples.

Results

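Fatty acid oxidation in bone-marrow-derived macrophages (BMDMs) was followed through 10 genes, chosen by name, that carry a long-chain fatty acid from its activation to the last cut of the mitochondrial β-oxidation cycle. All 10 were among the 54532 genes listed and among the 12755 that passed the filter on low values, a TPM (length-corrected share of the library's transcripts) of 1 or more in 2 or more libraries. BMDMs are primary macrophages grown in culture from the marrow of wildtype C57BL/6 mice, here in medium conditioned by L929 cells, and lipopolysaccharide (LPS) is a bacterial cell-wall component that they sense through TLR4. The 6 poly-A RNA-seq libraries formed 3 groups of 2, namely untreated cells, cells stimulated with LPS (100 ng/ml) during 2 h, and cells kept in 5 mM metformin during 6 h before the same LPS stimulation (Met + LPS). No group received metformin alone, so that metformin was measured only on top of LPS. The cells had been seeded in duplicate, and no source states that the duplicates came from different mice, so that the p-values measure only the spread between these libraries.

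To enter the mitochondrial matrix, a long-chain fatty acid is first joined to coenzyme A by an acyl-CoA synthetase, then moved onto carnitine by carnitine palmitoyltransferase 1, carried through the inner membrane by a translocase, and returned to coenzyme A by carnitine palmitoyltransferase 2. Each turn of β-oxidation then uses an acyl-CoA dehydrogenase, a hydratase, a hydroxyacyl-CoA dehydrogenase and a thiolase to release acetyl-CoA and electrons. Macrophages stimulated with LPS are known to rely more on glycolysis and to store lipid, whereas alternatively activated macrophages are known for high fatty acid oxidation, and AMP-activated protein kinase, which metformin activates, is known to relieve the block that malonyl-CoA places on carnitine palmitoyltransferase 1.

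Promoter sequences of the genes are given as context for the values that follow. RefSeq windows of 300 bases (GRCm38.p6, the genome build to which the reads had been aligned), reaching 250 bases upstream of a start site, were found for 9 of the 10 genes and gave 10 windows, since Acsl1 has 2 start sites. Acaa2 had no entry. Hadha and Hadhb lie head to head on chromosome 5, Hadha on the minus and Hadhb on the plus strand, with 85 bases between their GENCODE starts. This stretch is shown because the 2 genes share it and had similar fold changes in both comparisons, although those after LPS were close to that of the median gene. A shared cause was not tested. The stretches upstream of Acsl1, which rose with LPS, of Cpt2 and Cpt1a, which fell, and of Acadl, which kept its TPM, are shown beside it. All are free of annotated exons and are written 5′ to 3′ on the strand given, with capitals marking the GC box GGGCGG, the binding sequence of Sp1 family factors, or its reverse complement.
Hadha-Hadhb interval, chr5:30155163-30155247, plus strand: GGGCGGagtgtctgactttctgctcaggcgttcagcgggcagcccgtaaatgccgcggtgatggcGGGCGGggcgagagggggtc
Acsl1, first start, chr8:46470787-46471036, plus strand: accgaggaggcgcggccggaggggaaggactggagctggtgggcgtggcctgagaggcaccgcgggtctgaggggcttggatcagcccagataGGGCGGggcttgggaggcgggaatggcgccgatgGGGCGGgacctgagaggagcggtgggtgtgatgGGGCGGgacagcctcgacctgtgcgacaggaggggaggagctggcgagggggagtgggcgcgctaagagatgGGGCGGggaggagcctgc
Acsl1, second start, chr8:46490716-46490965, plus strand: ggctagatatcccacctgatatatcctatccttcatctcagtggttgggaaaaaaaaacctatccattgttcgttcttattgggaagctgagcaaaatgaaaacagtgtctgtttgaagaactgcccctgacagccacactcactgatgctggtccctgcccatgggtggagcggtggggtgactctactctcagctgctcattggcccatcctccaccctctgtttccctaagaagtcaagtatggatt
Cpt2, chr4:107923611-107923839, minus strand: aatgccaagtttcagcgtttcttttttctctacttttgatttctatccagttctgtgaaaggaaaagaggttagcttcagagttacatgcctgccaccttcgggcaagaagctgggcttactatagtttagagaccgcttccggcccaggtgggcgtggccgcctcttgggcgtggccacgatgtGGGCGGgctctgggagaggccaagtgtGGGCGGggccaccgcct
Cpt1a, chr19:3323051-3323284, plus strand: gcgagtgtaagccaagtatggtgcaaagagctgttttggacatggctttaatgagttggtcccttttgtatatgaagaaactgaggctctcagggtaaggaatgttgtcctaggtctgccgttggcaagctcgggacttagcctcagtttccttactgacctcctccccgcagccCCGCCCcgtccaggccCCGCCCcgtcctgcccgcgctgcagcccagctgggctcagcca
Acadl, chr1:66863310-66863559, minus strand: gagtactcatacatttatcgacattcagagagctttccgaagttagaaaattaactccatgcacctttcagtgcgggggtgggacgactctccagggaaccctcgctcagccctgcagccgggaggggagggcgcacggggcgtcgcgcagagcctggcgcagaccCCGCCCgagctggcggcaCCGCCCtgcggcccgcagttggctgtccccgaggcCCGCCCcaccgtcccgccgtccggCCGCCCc
The stretch at the first start of Acsl1 held 4 GC boxes in 250 bases, of which 72.0% were G or C, and that at the second start held 0, with 48.4% G or C. Counting both strands, 7 of the 10 windows held a GC box, against 35.7% of all 32851 RefSeq windows of the same length, which had a median GC content of 52.7%. The 10 windows are not separate, since those of Hadha and Hadhb overlap and the 1 GC box of the Hadha window lies in both. The half-site AGGTCA, bound by nuclear receptors, was found in the windows of Acadm, Acadvl and Cpt1a and in 16.3% of all windows. CCAAT was found in 2 of the 10 windows, one of Acsl1 and that of Cpt1a, and in 37.4% of all windows. The 4 other patterns searched were the direct repeat bound by PPAR (AGGTCA, any base, AGGTCA), the site bound by ERR (TCA directly before AGGTCA), both of which contain AGGTCA, the NF-κB site (GGG, any 2 bases, TTTCC) and the E-box CACGTG. These were found in 0 of the 10 windows and in 0.0396%, 0.423%, 1.63% and 7.15% of all windows. The windows without a GC box were those of Acadm, of Acadvl and of the second start of Acsl1. A match of letters is a description and no evidence of binding.

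Reads on genes, recovered from the TPM values and gene lengths, numbered between 25457016 and 30762753 per library. The 10 genes rested on between 224 reads (Cpt2, in a Met + LPS library) and 8564 reads (Cpt1a, in an untreated library). Fold changes are given as log2FC, the difference of mean log2(TPM + 1) between groups. The median log2FC of all tested genes was -0.48 after LPS (against untreated) and -0.03 with metformin added (Met + LPS against LPS), so that values after LPS are to be read against -0.48. Values after rescaling each library by its median ratio over the tested genes are therefore given beside the TPM, and for Hadha, Hadhb and Acaa2 the sign after LPS depended on this choice. All 7 macrophage markers were expressed, with a summed level of 28763 to 45600 TPM, most of it from Lyz2, and the sum was 43710 and 45600 TPM in untreated BMDMs, 35264 and 34526 TPM after LPS and 28763 and 28884 TPM in Met + LPS. By limma (adjusted p under 0.01, in TPM), Adgre1 was higher after LPS, Fcgr1 was not called and the others were lower. This depended on the scaling. After rescaling, Adgre1 (log2FC 0.68), Fcgr1 (0.52), Itgam (0.30) and Cd68 (0.19) were called higher after LPS. Csf1r (0.01) and Lyz2 (0.15) were then not called, and Mertk (-0.75) was lower. In Met + LPS vs. LPS, Cd68 and Csf1r were not called and the others were lower, in either scaling. All marker sums given here are in TPM without rescaling. Markers of other cells were low, with summed levels of at most 0.846 TPM for 5 fibroblast markers (none at 0 throughout) and 0.162 TPM for 5 erythroid markers (4 at 0 throughout). The 5 T cell markers (1 at 0 throughout) summed to 6.92 and 6.23 TPM in untreated BMDMs, 4.30 and 3.81 TPM after LPS and 3.58 and 2.72 TPM in Met + LPS. Nearly all of this was Cd4, and 4 of the 5, among them the Cd3 genes, were under 1 TPM in all libraries. The 4 B cell markers (none at 0 throughout) summed to 3.18 and 2.63, 1.47 and 1.55, and 0.777 and 0.766 TPM, mostly Cd79b, and 3 of them were under 1 TPM in all libraries. The 4 mast cell markers (2 at 0 throughout), mostly Kit, summed to 21.1 and 20.6 TPM in untreated BMDMs, 8.00 and 8.18 TPM after LPS and 24.4 and 23.2 TPM in Met + LPS, and were thus lower in LPS than in both other groups. The 6 markers of neutrophils and their precursors (none at 0 throughout) summed to 27.7 and 30.9 TPM in untreated BMDMs, 24.5 and 26.2 TPM after LPS and 42.4 and 40.8 TPM in Met + LPS. Elane, the highest by mean, averaged 16.3, 8.64 and 15.6 TPM in these groups. S100a9 averaged 4.90, 9.08 and 14.3 TPM and S100a8 5.52, 5.90 and 8.53 TPM, so that the members did not all follow the sum. The part of these markers in the results was not tested, and fewer cells of a type and less RNA per cell cannot be told apart in such bulk libraries.

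Untreated BMDMs expressed the 10 genes at levels between 21.0 and 162 TPM. Acadl (long-chain acyl-CoA dehydrogenase) was the highest at 162 ± 2.04 TPM (SD, n = 2), followed by Cpt1a at 151 ± 5.41, Acaa2 at 107 ± 8.63, Acadm at 75.2 ± 3.27, Hadha at 73.4 ± 2.07, Acadvl at 44.4 ± 4.44, Cpt2 at 39.0 ± 0.843, Hadhb at 28.0 ± 0.715, Slc25a20 at 22.6 ± 0.391 and Acsl1 at 21.0 ± 0.328 TPM. Of the neighbours in this order, Acadm and Hadha overlapped between libraries and all other pairs were apart. After LPS the order had no overlapping neighbours, Acsl1 had moved from rank 10 to rank 5, and Slc25a20 was the lowest at 15.4 ± 0.364 TPM. In Met + LPS the neighbours Hadha and Acaa2, Acaa2 and Acsl1, and Hadhb and Cpt2 overlapped. TPM is a level per length, and the length of a gene with many annotated exons can exceed that of its transcript (10483 bases for Acsl1), which lowers its TPM relative to other genes but leaves the comparisons between libraries as they are.

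**Figure D1:**
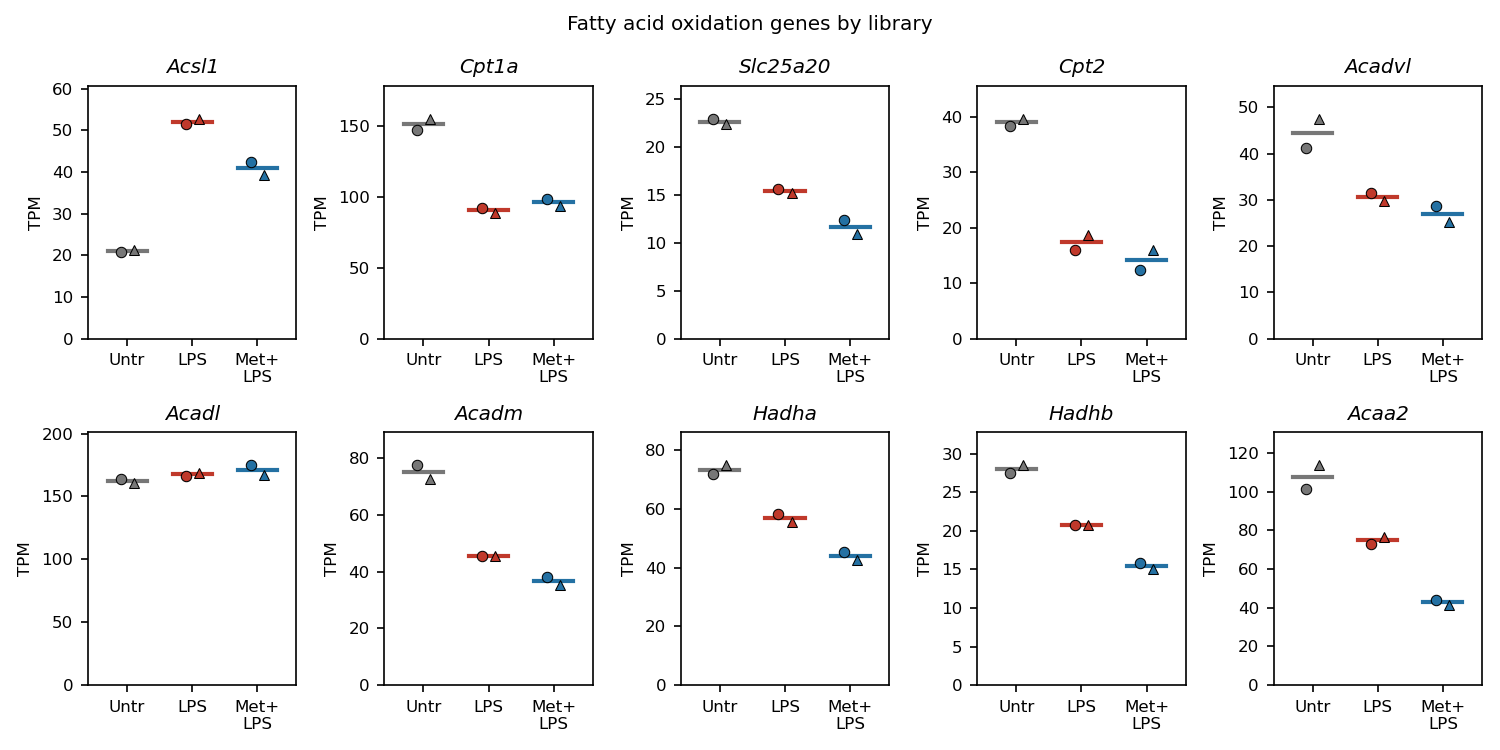
TPM of the 10 genes in each library (y axes start at 0) in untreated (Untr), LPS and Met + LPS BMDMs; circles are replicate 1, triangles replicate 2, and lines the mean of 2 libraries. Acsl1 is higher in both LPS libraries than in either untreated library, Acadl stays between 161 and 175 TPM, and Acaa2 averages 107, 74.8 and 42.7 TPM, where its first difference has the opposite sign after rescaling (log2FC 0.01).

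LPS stimulation for 2 h was compared with no treatment to establish what the acute response does to the pathway. By the limma cut-off (adjusted p under 0.01), 1 of the 10 genes was higher after LPS (16.2% of all tested genes were) and 8 were lower (60.1% of all tested genes were), while Acadl was not called. Most tested genes were thus lower in TPM as well. The median log2FC of the 10 genes was -0.52, against -0.48 over all tested genes, and 6 of the 10 lay below that median. After median-ratio rescaling, 2 were higher (30.6% of all tested genes), 2 were lower (27.6%) and 6 were not called. None of the 10 reached the study's cut-off of an absolute log2FC of 2 with an adjusted p-value under 0.01, which 6.08% of all tested genes did in TPM. The study applied this cut-off to DESeq2 results, a different measure from the TPM values here. After rescaling the largest absolute log2FC of the 10 was 1.77 (Acsl1). What held in both scalings was thus the increase of Acsl1 and the decrease of Cpt1a and Cpt2.

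Acsl1 (ENSMUSG00000018796, chromosome 8, 46471037 to 46536051), an acyl-CoA synthetase that activates long-chain fatty acids, was at 20.8 and 21.3 TPM in untreated BMDMs, 51.5 and 52.8 TPM after LPS, and 42.5 and 39.4 TPM in Met + LPS. The 3 groups did not overlap, with the LPS libraries on top. The log2FC between LPS and untreated BMDMs was 1.27 (SE 0.05, limma adjusted p = 1.4e-06, Benjamini-Hochberg), and 1.77 after rescaling. In exons, 9.91% of its bases are overlapped by the predicted gene Gm45244, and reads shared by 2 genes are uncertain. Related synthetases were expressed as well. In untreated, LPS and Met + LPS BMDMs, Acsl5 averaged 78.7, 102 and 95.2 TPM and Acsl4 72.1, 82.9 and 105 TPM. Acsl3 averaged 24.3, 7.42 and 12.0 TPM, and Acsl6 was at 0. In Met + LPS vs. LPS, Acsl4 (log2FC 0.33) and Acsl3 (0.63) were called higher and Acsl5 (-0.10) was not called.

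Of the carnitine shuttle, both transferases fell by more than the median gene. Cpt1a (ENSMUSG00000024900, chromosome 19, 3323301 to 3385732) encodes the liver-type carnitine palmitoyltransferase 1 of the outer membrane, the step at which entry into mitochondria is controlled. Its levels were 147 and 155 TPM in untreated BMDMs, 92.0 and 88.8 TPM after LPS, and 98.3 and 93.9 TPM in Met + LPS. Both untreated libraries were above all others, and the log2FC after LPS was -0.74 (SE 0.04, limma adjusted p = 8.1e-06) and -0.21 after rescaling (limma adjusted p = 0.0036).

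Cpt2 (ENSMUSG00000028607, chromosome 4, 107903981 to 107923610), the transferase of the inner membrane, was at 38.4 and 39.6 TPM in untreated BMDMs, 16.0 and 18.6 TPM after LPS, and 12.4 and 15.9 TPM in Met + LPS. The untreated libraries were more than 2-fold above every stimulated library. With a log2FC of -1.13 (SE 0.12, limma adjusted p = 1.2e-04) it had the lowest value of the 10, and 15.4% of all tested genes had a lower one. After rescaling the log2FC was -0.62 (limma adjusted p = 0.0035). Slc25a20 (ENSMUSG00000032602, chromosome 9, 108662088 to 108684641), the carnitine-acylcarnitine translocase between the 2 transferases, was at 22.9 and 22.4 TPM in untreated BMDMs and 15.6 and 15.1 TPM after LPS. Its log2FC of -0.53 (limma adjusted p = 3.1e-04) was close to the median of all tested genes, and after rescaling the libraries overlapped (log2FC -0.03, 95% interval -0.19 to 0.13, limma adjusted p = 0.726).

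The acyl-CoA dehydrogenases, which make the first double bond in fatty acids of different chain length, differed from each other after LPS. Acadl (ENSMUSG00000026003, chromosome 1, 66830839 to 66863277), for long chains, was at 164 and 161 TPM in untreated BMDMs, 167 and 169 TPM after LPS, and 175 and 167 TPM in Met + LPS. Both LPS libraries were just above both untreated ones, the TPM log2FC after LPS was 0.04 (95% interval -0.04 to 0.13, limma adjusted p = 0.271), and relative to the other genes it was higher, at 0.57 after rescaling (limma adjusted p = 1.5e-05). Acadm (ENSMUSG00000062908, chromosome 3, 153922357 to 153944632), for medium chains, was at 77.5 and 72.8 TPM in untreated BMDMs and at 45.4 and 45.6 TPM after LPS. The untreated libraries were above both LPS libraries in either scaling, with a log2FC of -0.71 (limma adjusted p = 2.0e-05), whereas the rescaled value of -0.19 was not called (limma adjusted p = 0.0154). Acadvl (ENSMUSG00000018574, chromosome 11, 70010183 to 70015411), for very long chains, went from 41.2 and 47.5 to 31.4 and 29.7 TPM, a log2FC of -0.52 (limma adjusted p = 0.0012) that was -0.01 after rescaling. Leaving out untreated replicate 2 or LPS replicate 2 raised the adjusted p-value of Acadvl in limma to 0.0123 or 0.0108. Dvl2 overlaps 42.9% of the exon bases of Acadvl, which makes its level uncertain.

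The genes of the last steps had log2FC values close to that of the median gene. Hadha (ENSMUSG00000025745, chromosome 5, 30118304 to 30155162) and Hadhb (ENSMUSG00000059447, chromosome 5, 30155248 to 30184593) encode the α and β subunits of the mitochondrial trifunctional protein, which carries out the hydratase, dehydrogenase and thiolase reactions on long chains. Hadha was at 71.9 and 74.8 TPM in untreated BMDMs and at 58.3 and 55.5 TPM after LPS. Hadhb was at 27.5 and 28.5 TPM in untreated BMDMs and at 20.8 and 20.8 TPM after LPS. In TPM both were lower after LPS, with log2FC values of -0.36 and -0.41 (limma adjusted p = 4.0e-04 and 2.3e-04), but after rescaling their signs turned, to 0.16 and 0.10, and neither was called (limma adjusted p = 0.0215 and 0.123). Acaa2 (ENSMUSG00000036880, chromosome 18, 74779197 to 74806207), the mitochondrial 3-ketoacyl-CoA thiolase that releases acetyl-CoA, went from 101 and 114 to 72.8 and 76.7 TPM. This log2FC of -0.51 (limma adjusted p = 2.5e-04) became 0.01 after rescaling (95% interval -0.14 to 0.16). For Hadhb, 76.3% of the 31-mers of its transcripts occur in no other gene, and the predicted gene Gm13910 shares the most of the others, which makes its level less certain.

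**Figure D2:**
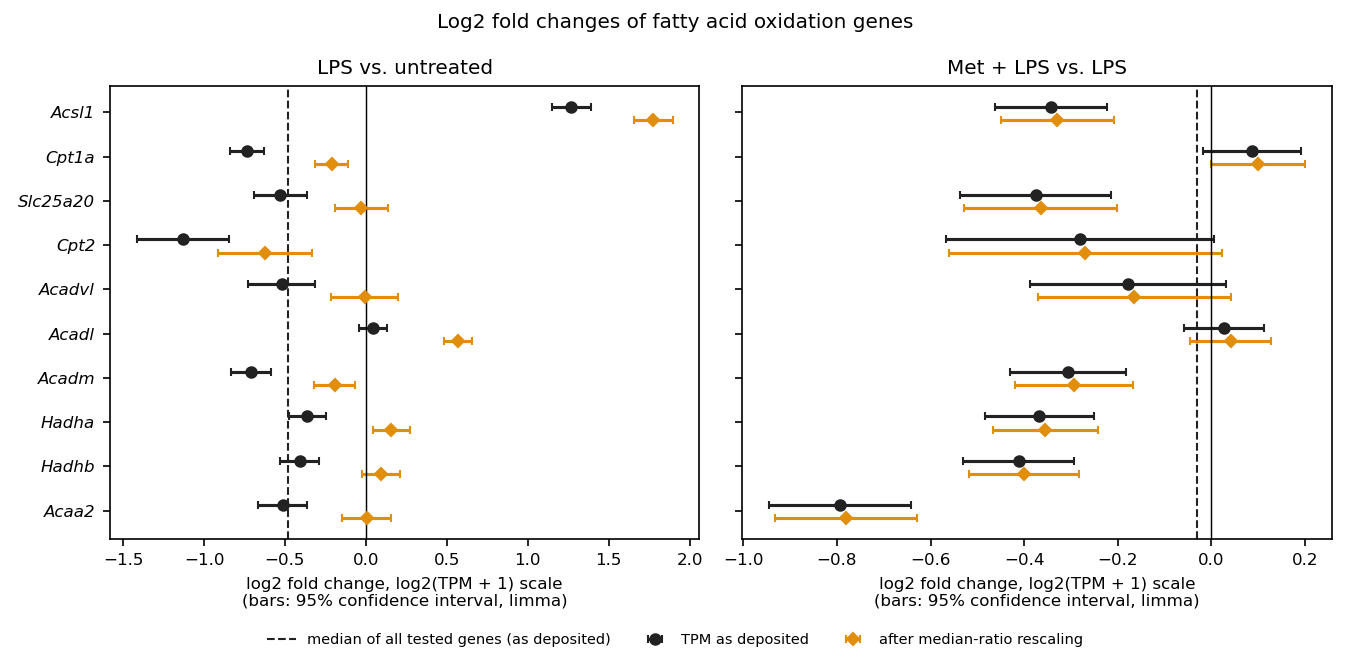
Log2FC values of the 10 genes (x axes, on the log2(TPM + 1) scale, which differ between the panels) in LPS vs. untreated and in Met + LPS vs. LPS, with 95% confidence intervals from limma; circles are TPM as deposited, diamonds the rescaled values, and the dashed line the median of all tested genes. On the left the rescaling moves every gene to the right and turns the sign of Hadha, Hadhb and Acaa2, and on the right both scalings nearly coincide, with Acaa2 lowest at -0.79.

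Met + LPS was compared with LPS to see what metformin pretreatment changes in stimulated cells. By the same cut-off in limma, 6 of the 10 genes were lower in Met + LPS (18.0% of all tested genes were), 0 were higher (14.5% of all tested genes were), and 4 were not called, namely Cpt1a, Cpt2, Acadvl and Acadl. The count of 0 higher was also 0 by voom on recovered reads, and 0 of the 10 had a 95% interval wholly above 0, which is an unadjusted p-value under 0.05. The median log2FC was -0.32 over the 10 genes and -0.03 over all tested genes. The same numbers of genes were called after rescaling (17.4% of all tested genes lower and 15.6% higher). Both Met + LPS libraries lay below both LPS libraries for 8 of the 10 genes, as they did for 40.0% of all tested genes, and above them for 1, Cpt1a (33.8% of all tested genes). After rescaling the libraries overlapped for Cpt2. The count depended on single libraries, since without LPS replicate 1 or without LPS replicate 2 the calls of Acsl1, Slc25a20 and Acadm were lost. Fewer of all tested genes were called in those fits as well. Leaving out 1 library kept the direction of these genes. Their log2FC values ranged from -0.40 to -0.29 (Acsl1), -0.46 to -0.29 (Slc25a20) and -0.36 to -0.25 (Acadm).

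Among the 10 genes, Hadha, Hadhb and Acaa2 were those whose decrease in Met + LPS was called under every alternative tried. Acaa2 was at 72.8 and 76.7 TPM in LPS and at 43.8 and 41.6 TPM in Met + LPS, which was 42.9% lower on average. Its log2FC of -0.79 (SE 0.06, limma adjusted p = 1.5e-04) was lower than that of 96.6% of all tested genes. It was the only one of the 10 past the study's cut-off of 0.7 for metformin, which 8.28% of all tested genes passed in either direction.

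Hadha went from 58.3 and 55.5 TPM to 45.2 and 42.6 TPM, and Hadhb from 20.8 and 20.8 TPM to 15.8 and 15.0 TPM. The groups were apart for both subunits, whose log2FC values were -0.37 and -0.41 (SE 0.05 and 0.05, limma adjusted p = 0.0012 and 8.1e-04). The pair thus fell by similar fractions, 22.9% and 26.0%, in Met + LPS, as it had in LPS vs. untreated BMDMs in TPM (22.4% and 25.6%).

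Of the 7 genes of the earlier steps, 3 were lower and 4 were not called. Acsl1 fell from 51.5 and 52.8 to 42.5 and 39.4 TPM, a log2FC of -0.34 (limma adjusted p = 0.0018), and in Met + LPS it was still 94.6% above the untreated mean. Slc25a20 fell from 15.6 and 15.1 to 12.4 and 10.9 TPM (log2FC -0.38, limma adjusted p = 0.0043), and Acadm from 45.4 and 45.6 to 38.0 and 35.3 TPM (log2FC -0.31, limma adjusted p = 0.0033). Cpt1a was at 92.0 and 88.8 TPM in LPS and at 98.3 and 93.9 TPM in Met + LPS, a log2FC of 0.09 with a 95% interval from -0.02 to 0.19 (limma adjusted p = 0.149). For Acadl the interval was -0.06 to 0.11. For Cpt2 it was -0.57 to 0.01 and for Acadvl -0.39 to 0.03, and the -0.37 of Hadha lies within both intervals.

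With both agents together, Met + LPS vs. untreated BMDMs, 8 of the 10 genes were lower (58.8% of all tested genes) and 1 was higher (16.3% of all tested genes) by the limma cut-off. After rescaling 6 were lower (29.7% of all tested genes) and 2 were higher (33.4%). This comparison shares libraries with both others and is given for its values only. The log2FC values were lowest for Cpt2 (-1.41), Acaa2 (-1.31) and Acadm (-1.02) and highest for Acsl1 (0.93), and after rescaling they were -0.89, -0.77, -0.49 and 1.45. Acadl was at 0.07 in TPM and 0.61 after rescaling.

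Ratios of 2 genes within a library do not depend on how the library is scaled, and they showed which members moved apart. The TPM ratio of Hadha to Hadhb was 2.61 and 2.62 in untreated BMDMs, 2.80 and 2.67 after LPS, and 2.86 and 2.83 in Met + LPS. The groups did not overlap, but this ratio changed least of those given here. The ratio of Acaa2 to Hadhb was 3.68 and 3.98 in untreated BMDMs and 3.50 and 3.68 after LPS, where the groups overlapped, and 2.77 and 2.77 in Met + LPS, below all others.

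The ratio of Acsl1 to Cpt1a, 2 of the enzymes at the entry to the pathway, was 0.141 and 0.137 in untreated BMDMs, 0.559 and 0.594 after LPS, and 0.432 and 0.420 in Met + LPS. It leaves out the other synthetases, which did not all follow Acsl1. The ratio of the transferases Cpt1a to Cpt2 was 3.83 and 3.91 in untreated BMDMs, 5.74 and 4.77 after LPS, and 7.93 and 5.89 in Met + LPS, with no overlap but with libraries of a group that lay far apart. The ratio of Acadm to Acadl was 0.473 and 0.452 in untreated BMDMs, 0.273 and 0.271 after LPS, and 0.217 and 0.211 in Met + LPS. With 2 libraries against 2, a two-sided exact permutation test cannot give a p-value under 0.333, so these ratios are given without a test.

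**Figure D3:**
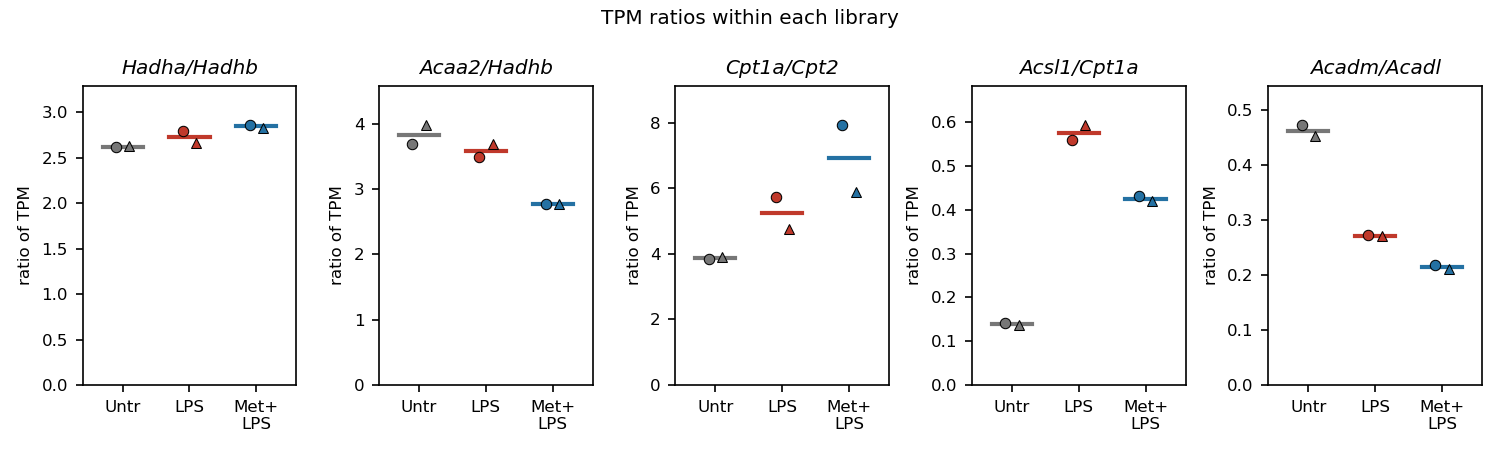
Ratios of the TPM of 2 genes within each library (y axes start at 0), by group; circles are replicate 1, triangles replicate 2, and lines group means. Acsl1/Cpt1a rises from 0.139 to 0.577 with LPS and is 0.426 in Met + LPS on average, Acadm/Acadl falls in both steps, and Hadha/Hadhb stays between 2.61 and 2.86.

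The summed level of the 10 genes was 713 and 737 TPM in untreated BMDMs, 571 and 572 TPM after LPS, and 512 and 487 TPM in Met + LPS. After rescaling it was 554 and 570 in untreated BMDMs, 635 and 641 after LPS, and 577 and 549 in Met + LPS, so that the sum was lower after LPS in TPM and higher after rescaling, whereas Met + LPS was below LPS in both. Without Acadl the rescaled sums were 427 and 445 in untreated BMDMs, 449.7 and 452 after LPS, and 380.2 and 361 in Met + LPS.

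The genes whose profile over the 6 libraries was most like that of Cpt1a, by the root mean square distance of centred log2(TPM + 1) values, were Usp4, Ints11, Usp22, Clcn4 and Lactb, at distances of 0.014 to 0.024. Those most like Acsl1 were Dnaja2, Lrrfip1, Psme2, Phf6 and Pik3r5, at 0.040 to 0.046. The nearest of the other 9 genes to Cpt1a was Acadvl, at a distance of 0.12 and rank 1460 of the tested genes, and the nearest to Acsl1 was Acadl, at 0.51 and rank 1999.

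The wider pathway was described with 93 further genes in 8 lists by role, of which 75 were tested. After LPS, 63 of the 75 were lower (60.1% of all tested genes were) and 6 were higher (16.2%) by that limma cut-off, and after rescaling 29 were lower (27.6% of all tested genes) and 13 were higher (30.6%). Their median log2FC was -0.69, against -0.48 over all tested genes. In Met + LPS vs. LPS, 15 were lower (18.0% of all tested genes), 16 were higher (14.5%) and 44 were not called, and the median of -0.04 was close to the -0.03 of all tested genes.

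In the other genes of mitochondrial β-oxidation, 14 of 16 tested were lower and 0 higher after LPS (60.1% and 16.2% of all tested genes), but after rescaling 3 were lower and 2 were higher (27.6% and 30.6%). In Met + LPS vs. LPS 6 of the 16 were lower and 0 were higher, against 18.0% and 14.5% of all tested genes (6 and 1 after rescaling, the latter Hsd17b10), with a median log2FC of -0.22. Ech1, a dienoyl-CoA isomerase, fell from 64.6 to 51.4 TPM (log2FC -0.33, limma adjusted p = 0.0033), whereas the values of Etfa, a subunit of the electron transfer flavoprotein, and of Hsd17b10, a short-chain hydroxyacyl-CoA dehydrogenase, were 0.16 and 0.16 and were not called in TPM. Of the peroxisomal β-oxidation genes, 5 of 13 tested were lower in Met + LPS and 0 were higher (18.0% and 14.5% of all tested genes). Among them were the bifunctional enzyme Hsd17b4 (from 105 to 69.7 TPM, log2FC -0.59) and the thiolase Acaa1a (from 70.8 to 54.0 TPM, -0.38), the last with a near-identical paralog, Acaa1b, that makes its value uncertain. After LPS 12 of these 13 were lower and 0 higher (60.1% and 16.2% of all tested genes), and after rescaling 6 were lower and 1 was higher (27.6% and 30.6%).

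Of 13 tested genes of uptake and activation, 4 were higher in Met + LPS and 0 were lower (14.5% and 18.0% of all tested genes), and 9 were not called. Among those higher were the fatty acid binding proteins Fabp4 (from 54.7 to 89.7 TPM, log2FC 0.70) and Fabp5 (from 301 to 369 TPM, 0.29), whereas the scavenger receptor Cd36 (0.22, limma adjusted p = 0.018) and the transporter Slc27a1 (-0.04) were not called. After LPS 3 of these 13 were higher and 9 lower, near the 16.2% and 60.1% of all tested genes, and after rescaling 5 were higher and 4 lower (30.6% and 27.6%). Of the 4 tested carnitine genes 4 were lower after LPS (60.1% of all tested genes) and 2 after rescaling (27.6%), among them the acyltransferases Crat (from 59.9 to 30.1 TPM) and Crot (from 29.3 to 14.8 TPM). In Met + LPS 1 of the 4 was higher and 0 were lower (14.5% and 18.0% of all tested genes). This gene was Slc22a4, an organic cation and carnitine transporter, which went from 4.22 to 12.0 TPM (log2FC 1.32, limma adjusted p = 6.1e-04), and the carnitine transporter Slc22a5 was at 9.28 and 9.48 TPM.

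Of 10 tested genes of lipid droplets and lipolysis, 5 rose and 2 fell when Met + LPS was set against LPS (14.5% and 18.0% of all tested genes). Hilpda, an inhibitor of triglyceride lipolysis, went from 26.3 to 43.5 TPM (log2FC 0.71), the monoglyceride lipase Mgll from 5.16 to 10.1 TPM (0.84), the lysosomal lipase Lipa from 2177 to 2505 TPM (0.20), and the droplet coat protein Plin2 from 708 to 801 TPM (0.18), whereas lipoprotein lipase Lpl fell from 1372 to 1053 TPM (-0.38). After LPS 8 of these 10 were lower and 1, Hilpda, was higher (60.1% and 16.2% of all tested genes), and after rescaling 3 were lower and 3 higher, near the 27.6% and 30.6% of all tested genes. Of 4 tested ketone body genes, 3 were lower after LPS (60.1% of all tested genes) and 2 after rescaling (27.6%), among them Bdh1, which interconverts ketone bodies, from 5.80 to 1.36 TPM (log2FC -1.52). Only Oxct1, which activates ketone bodies for use, was higher of these 4 in Met + LPS (log2FC 0.23, limma adjusted p = 0.0041), and 0 were lower (14.5% and 18.0% of all tested genes).

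Regulators and targets of PPAR, the nuclear receptors that control many fatty acid oxidation genes, included the genes with the largest log2FC values of the 75, Lpin1 after LPS (-2.55) and Acot2 in Met + LPS vs. LPS (2.13). The regulators Ppara and Ppargc1a reached at most 0.0364 and 0.0998 TPM in any library and were not tested. After LPS 9 of 11 tested regulators were lower and 2 higher (60.1% and 16.2% of all tested genes), and after rescaling 7 were lower and 2 higher (27.6% and 30.6%). Pparg went from 111 to 34.2 TPM with LPS and was at 78.4 TPM in Met + LPS (log2FC 1.17 against LPS), and Ppard went from 12.2 to 3.53 and 8.40 TPM (1.05). The PGC-1β coactivator Ppargc1b had the opposite course, from 3.47 to 19.5 TPM with LPS and 11.6 TPM in Met + LPS (log2FC -0.70 against LPS). Lpin1, a phosphatidate phosphatase and coactivator, and Mlycd, which removes malonyl-CoA, were lower after LPS (from 15.9 to 1.89 and from 24.5 to 5.29 TPM) and were not called in Met + LPS vs. LPS. In that comparison 4 of the 11 regulators were higher and 1 was lower (14.5% and 18.0% of all tested genes).

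Of 4 tested PPAR targets, 4 were lower after LPS (60.1% of all tested genes) and 2 after rescaling (27.6%), and in Met + LPS 1 was higher and 1 was lower than in LPS (14.5% and 18.0%). The mitochondrial acyl-CoA thioesterase Acot2, whose near-identical paralog Acot1 makes its value uncertain, went from 21.2 to 3.64 TPM with LPS and was at 19.3 TPM in Met + LPS (log2FC 2.13, limma adjusted p = 2.8e-05). Ucp2, a mitochondrial carrier protein, fell from 247 to 167 TPM in Met + LPS (log2FC -0.56), and the lipase inhibitor Angptl4 was at 9.24 TPM in untreated BMDMs, 1.17 TPM after LPS and 0.324 TPM in Met + LPS (-0.71 against LPS, limma adjusted p = 0.0139, not called).

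**Figure D4:**
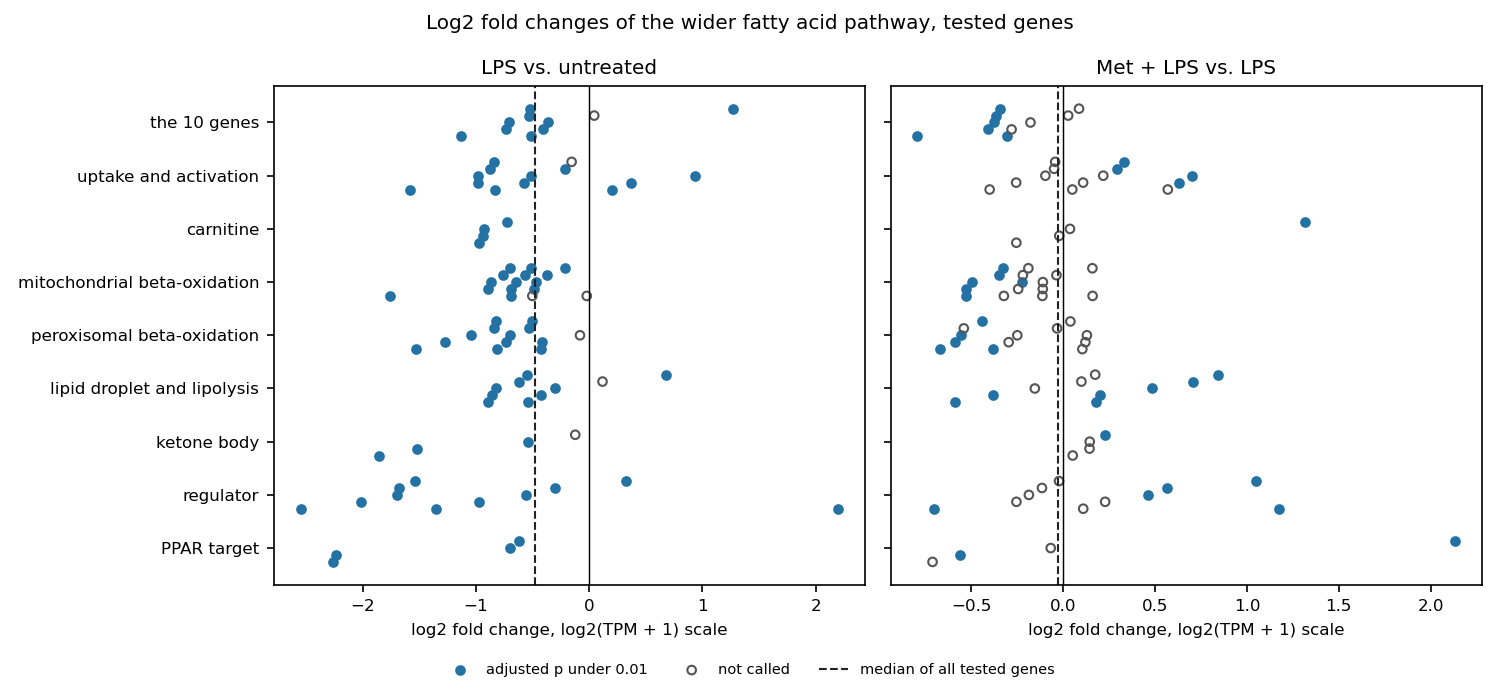
Log2FC values (x axes, on the log2(TPM + 1) scale) of the 10 genes and of the 75 other tested genes of the pathway by list, in LPS vs. untreated and Met + LPS vs. LPS; filled points passed the limma cut-off and the dashed line is the median of all tested genes. In TPM, the called genes of Met + LPS vs. LPS in mitochondrial and peroxisomal β-oxidation lie below 0 and those of uptake and carnitine above 0; on the left, TPM as deposited places most genes below 0, and 29 of the 75 are called lower after rescaling.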

How the data were processed

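The authors mapped single-end poly-A reads onto GRCm38 by STAR 2.6.1d, counted reads per gene by featureCounts in Subread 1.6.3, and deposited TPM values for 54532 genes, 1 column for each of the 6 libraries. Because TPM fixes every library to the same sum, RNA content per cell cannot be read from it.

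The deposited TPM were analysed in limma 3.58.1 (R 4.3.3) as log2(TPM + 1), a scale on which changes of weakly expressed genes appear too small. The fit held the 12755 genes that reached 1 TPM in 2 libraries, all 3 groups without covariates, and eBayes with a trend, and p-values were adjusted by Benjamini-Hochberg over all of them. Genes were called at an adjusted p under 0.01, and the study's fold cut-offs were applied separately. DESeq2, which the study used, needs counts and was not run. Errors are SDs over 2 libraries, or limma's standard errors and 95% intervals. Groups were taken from the sample descriptions.

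Reads were recovered by multiplying TPM by GENCODE M21 exon lengths (54495 genes matched), where 96.4% to 96.6% of values above 0 came within 0.05 of a whole read. They were used only for depth and voom, and reads without molecular identifiers show counting error only.

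The 10 genes, the lists and the tests were chosen with earlier results of these data known. Pathway genes were named if among the 3 highest by mean TPM in their list or past the study's cut-offs, and the 5 nearest profiles were named for Cpt1a and Acsl1. Acsl3, Acsl4, Acsl5 and Acsl6 were named outside this rule, as relatives of Acsl1, and so were Ppara and Ppargc1a, as regulators that were not tested. Some genes that this rule names are not reported here. Alternatives changed the pseudocount, filter, scaling, libraries fitted, trend, threshold, replicate block or method (voom). The limma fit was also run on simulated data in which few genes changed, as many up as down. That simulation lacked the shift of the median log2FC seen after LPS, so it could not check the calls under such a shift. Python 3.11.15 and matplotlib 3.10.9 were used. Promoter windows came from RefSeq (GRCm38.p6), matched by symbol.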

Additional observations from a re-analysis of the deposited data

How the results depend on the processing

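Of 450 values of the 10 genes under the alternatives, 403 kept their direction and their side of the threshold, 31 were no longer called, 6 became called and 10 changed sign. In LPS vs. untreated BMDMs, rescaling left 4 genes called (2 higher, 2 lower), as did rescaling with the replicate block (4, with 2 and 2). Voom with rescaling called 3 higher and 3 lower. Over all tested genes, rescaling called 30.6% higher and 27.6% lower. With the block it called 3883 higher and 3386 lower of 12755, and with voom 4253 higher and 4028 lower of 12750. These rescaled fits gave log2FC values of 0.16, 0.16 and 0.16 for Hadha, 0.10, 0.10 and 0.10 for Hadhb, and 0.0060, 0.0073 and 0.0060 for Acaa2, and the sign turned because each library was divided by its median ratio. The 2 rescaled alternatives with voom or the block were chosen after seeing the data. In Met + LPS vs. untreated BMDMs, 2 genes were higher in all 3 rescaled fits, and 5 were lower in rescaling with the block. Over all tested genes, 33.4% were higher by rescaling and 4579 of 12750 with voom. With the block 4183 of 12755 were higher and 3639 were lower. In Met + LPS vs. LPS, leaving out LPS replicate 1, LPS replicate 2 or Met + LPS replicate 2 lost calls among Acsl1, Slc25a20 and Acadm. Fewer of all tested genes were called in these fits as well, and a lone library is assumed there to vary like the others. With 1 library left out, the log2FC of Acadl in this comparison ranged from -0.0049 (without Met + LPS replicate 1) to 0.060. Slc25a20 and Acadm were also lost without a filter, with only the compared groups in the fit and without a trend, which left 4 lower, and the cause was not tested. Over all tested genes, these fits called 1502 of 23749, 1458 of 12755 and 1718 of 12755 lower. The replicate block alone left 9, 6 and 9 genes called in the 3 comparisons. Of all 12755 tested genes it called 2051 higher and 7590 lower after LPS. For Met + LPS it called 1760 and 2196 against LPS, and 2058 and 7378 against untreated BMDMs. Same-numbered libraries did not deviate together (correlations of -0.0037, 0.028 and 0.0062), so that the replicate numbers were not taken as pairs. With 2 libraries a group and 3 residual degrees of freedom, changes smaller than the intervals given were not detectable, and TPM cannot show whether all transcripts fell or rose together.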
